A study of Homo sapiens with 7 samples.

Results

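The cell cycle genes described here are 49 genes chosen by name, out of 23262 genes with values in the deposited expression table, and all 49 were found. By role they are 12 genes of DNA replication, 12 genes of mitosis, 12 cyclins and cyclin-dependent kinases, 6 kinase inhibitors and 7 regulators of the RB and E2F pathway. RNA was measured by RNA-seq in 7 libraries of human embryonic stem cells (hESC) undifferentiated or on the way to heart muscle. Their reporter line, labelled H3 hESC NKX2-5eGFP/alpha-MHC-mCherry, marks NKX2-5, a transcription factor of early heart cells, with eGFP, and alpha-MHC (aMHC), the cardiac myosin encoded by MYH6, with mCherry. The labels of the 6 later libraries print other numbers after NKX2 in that name, and they were read as the same line, which carries both reporters in every group. The groups are undifferentiated hESC (day 0), CD13+/ROR2+ cells of day 3 (labelled mesoderm progenitors), CD13-/ROR2- cells of day 3 (labelled endoderm progenitors), NKX2-5+ cells of day 7 (labelled cardiac progenitors), NKX2-5- cells of day 7 (cell type labelled unknown), aMHC+ cells of day 14 (labelled cardiomyocytes) and aMHC- cells of day 14 (cell type labelled unknown). Both day 7 fractions are also labelled CD13+/ROR2+, and both day 14 fractions CD13+/ROR2+ and NKX2-5+. Each group is 1 library, so no difference below has a replicate check, a standard deviation or a p-value.

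Cells that divide copy their DNA in S phase and separate it in mitosis, with gap phases called G1 and G2 around these steps. Cyclins switch on cyclin-dependent kinases (CDKs): D-type cyclins with CDK4 and CDK6 act in G1, E-type cyclins with CDK2 at the entry to S phase, and cyclins A and B with CDK1 in G2 and mitosis. RB holds back the E2F factors, which drive replication genes, whereas mitotic genes are held back by the related DREAM complex and switched on by B-MYB (MYBL2) and FOXM1. Human embryonic stem cells are known for a short G1 and fast division, and heart muscle cells leave the cell cycle as they mature.

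Replication and mitotic genes are known to carry different short motifs in front of their starts, and the promoters of the members showed this division. Of the 49 members, 38 had an entry in RefSeq's promoter table (build GRCh38.p14; 250 bases before to 50 after the start; the first entry listed for each gene). MCM4, MCM5, AURKA, BIRC5, UBE2C, CCND1, CCND2, CCNE2, CDK2, E2F8 and FOXM1 had none. The CHR element bound by DREAM and its activators (TTTGAA or TTCGAA, both strands) was in 8 of 9 mitosis promoters and 1 of 10 replication promoters, against 16.6% of 27305 promoters in all. The core of the E2F site was searched on both strands as TTGGCGC, with the further forms TTCGCGC, then also TTCCCGC, and then also TTGCCGC. It was in 8 of 10 replication promoters and 0 of 9 mitosis promoters, against 13.1% in all. CCAAT (both strands) was in 8 of 9 mitosis and 6 of 10 replication promoters, against 35.7% in all. In the 6 inhibitor promoters neither the CHR nor the E2F letters occurred. These are matches of letters only, and these genes are textbook examples of both motif classes.

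The 120 bases before the start are shown for 3 mitosis genes, the mitotic cyclin gene CCNB2 and 3 replication genes with motifs there, and for the inhibitor gene CDKN1A as a contrast, 5′ to 3′ on the gene's strand. Capitals mark CHR, CCAAT and E2F matches, read on either strand; in MKI67 a CHR and a CCAAT match, and in MCM6 a pair of E2F matches, overlap. The CHR match of MCM6 lies outside these 120 bases. They lie at chr16:23678769-23678888 (PLK1, plus strand), chr1:43358861-43358980 (CDC20, plus), chr15:59105026-59105145 (CCNB2, plus), chr10:128126424-128126543 (MKI67, minus), chr2:135876444-135876563 (MCM6, minus), chr20:5126623-5126742 (PCNA, minus), chr16:88803669-88803788 (CDT1, plus) and chr6:36678594-36678713 (CDKN1A, plus) of GRCh38.p14. The first base of a CHR match lies 29 bases before the start in each of PLK1, CCNB2 and MKI67.
PLK1: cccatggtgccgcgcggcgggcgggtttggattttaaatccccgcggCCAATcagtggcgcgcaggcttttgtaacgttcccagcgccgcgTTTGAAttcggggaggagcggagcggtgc
CDC20: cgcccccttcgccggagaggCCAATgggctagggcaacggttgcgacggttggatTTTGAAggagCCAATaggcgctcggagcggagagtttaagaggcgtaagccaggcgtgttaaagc
CCNB2: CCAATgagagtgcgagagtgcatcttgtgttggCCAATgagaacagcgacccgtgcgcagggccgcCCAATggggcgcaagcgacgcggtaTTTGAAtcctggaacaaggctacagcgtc
MKI67: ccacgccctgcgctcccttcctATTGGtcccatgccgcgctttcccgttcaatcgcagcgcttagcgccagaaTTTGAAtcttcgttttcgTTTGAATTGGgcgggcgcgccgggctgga
MCM6: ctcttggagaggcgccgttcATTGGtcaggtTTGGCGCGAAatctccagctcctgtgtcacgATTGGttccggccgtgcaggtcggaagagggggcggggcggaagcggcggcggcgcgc
PCNA: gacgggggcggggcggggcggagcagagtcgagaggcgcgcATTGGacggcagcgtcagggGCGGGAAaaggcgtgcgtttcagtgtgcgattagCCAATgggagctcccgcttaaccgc
CDT1: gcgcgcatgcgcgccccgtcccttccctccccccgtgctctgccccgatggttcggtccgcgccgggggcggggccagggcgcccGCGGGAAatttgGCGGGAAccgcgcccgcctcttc
CDKN1A: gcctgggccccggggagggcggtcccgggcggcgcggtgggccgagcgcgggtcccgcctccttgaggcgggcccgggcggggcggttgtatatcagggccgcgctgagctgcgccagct

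Levels are in FPKM, which divides fragments by the length of the transcript and by all mapped fragments. A ratio is log2 of (FPKM + 1) in the library named first over (FPKM + 1) in the other, so negative values mean lower in the first; it understates differences of genes near 1 FPKM. A gene is called higher or lower at a 2-fold ratio (size 1 on the log2 scale) if the higher of the 2 values is 5 FPKM or more. The background is the share so called among all genes tested, meaning those that reach 5 FPKM. Counts of members are out of all members, tested or not. Day 7 NKX2-5+ stood apart from the other libraries over genes of all kinds. Its values lay 0.54 below the average of the libraries on the log2 scale in the median of 7780 genes (median-ratio shift -0.54), against -0.11 to 0.28 in the other 6, and steps between low values put its depth at 0.603 times that of hESC (1.31 to 3.10 times for 4 other libraries; that of day 7 NKX2-5- could not be read). Counts of members in the comparisons that use day 7 NKX2-5+ are given with and without median-ratio scaling. Libraries also differed in the share of the FPKM sum held by their highest gene. That share was 51.6% in day 7 NKX2-5-, 26.6% in hESC and 20.4% in day 14 aMHC-, against 1.52% to 3.37% in the others. Levels of single genes and of roles are mostly given as deposited only, and their order can change with scaling. In RNA of many cells, fewer dividing cells and less RNA per dividing cell cannot be told apart.

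Marker genes were read beside the labels. The 5 heart muscle markers (TNNT2, MYH6, MYL7, ACTN2 and RYR2) summed to 1.38 FPKM in hESC, 11.6 and 4.04 in day 3 CD13+/ROR2+ and CD13-/ROR2-, 2539 and 573 in day 7 NKX2-5+ and NKX2-5-, and 4603 and 1665 in day 14 aMHC+ and aMHC-. MYH6 itself was 136 FPKM in the aMHC- library, against 342 in aMHC+, and was highest in day 7 NKX2-5+ at 531. As deposited, the larger sum in day 14 aMHC+ than in day 7 NKX2-5+ came mostly from MYL7 (3082 and 1011 FPKM). TNNT2 (1133 and 934) and ACTN2 (38.0 and 33.9) had the same direction, while RYR2 (7.90 and 28.3) was lower in day 14 aMHC+, like MYH6. The 4 mesoderm markers (MESP1, APLNR, HAND1 and MIXL1) summed to 659 FPKM in day 3 CD13+/ROR2+ and 101 in CD13-/ROR2-, in the direction of the labels. The 3 endoderm markers (SOX17, FOXA2 and CER1) summed to 1758 and 14.5 FPKM, against the direction of the labels; CER1 made up most of it (1736 and 11.7), and SOX17 (17.8 and 2.71) and FOXA2 (3.88 and 0.0874) had the same direction. The 5 pluripotency markers summed to 666 FPKM in hESC and 579 in day 3 CD13-/ROR2-, and to at most 25.8 on days 7 and 14.

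**Figure D1:**
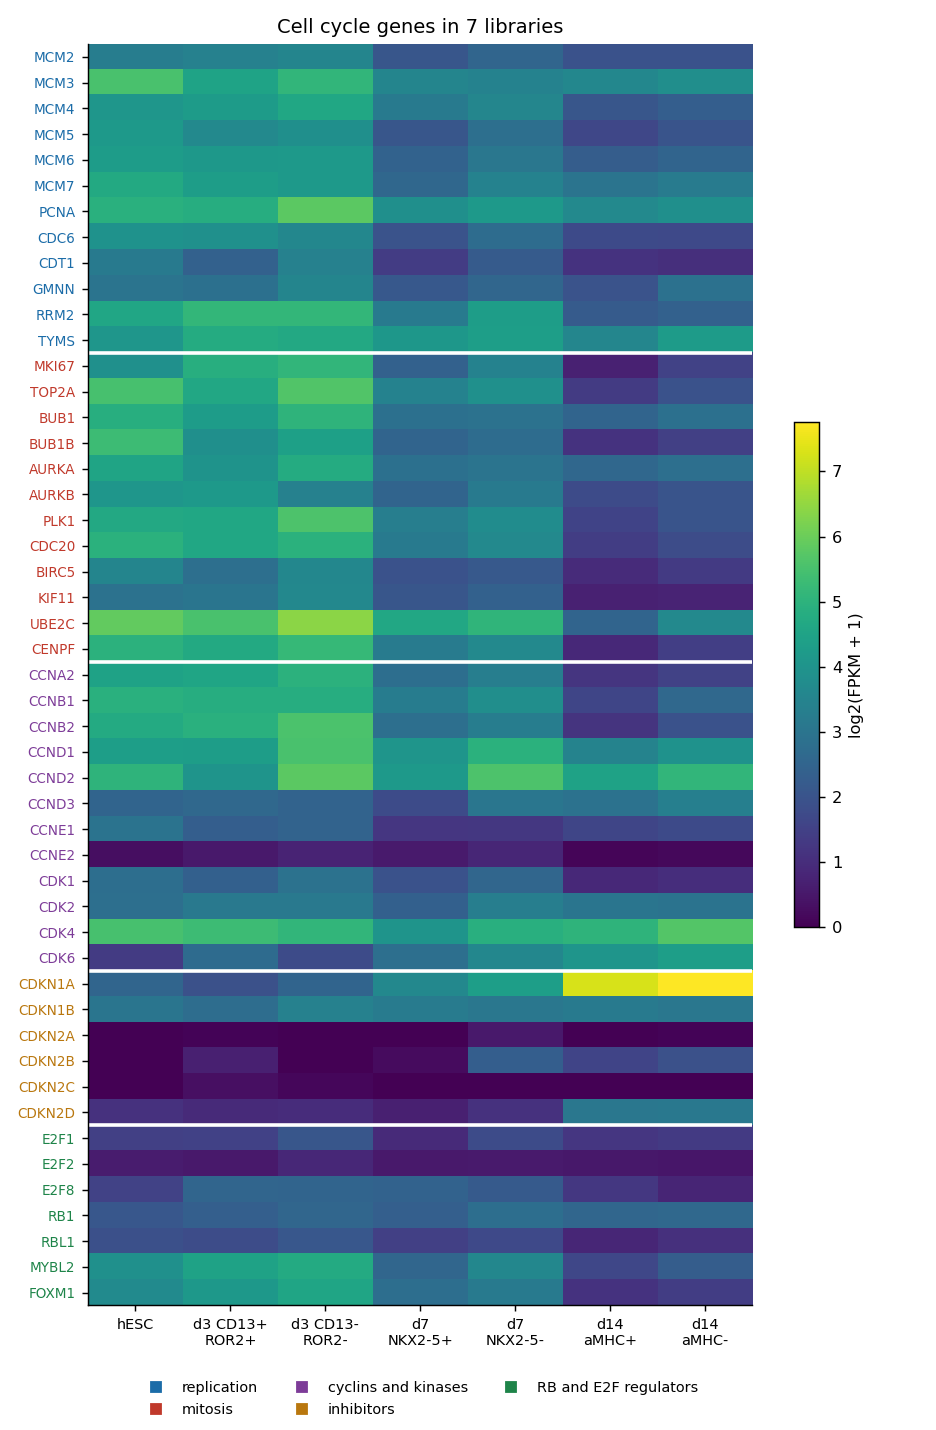
Level of each of the 49 cell cycle genes (rows, gene names coloured by role) in the 7 libraries (columns), as log2 of (FPKM + 1) by colour, with dark purple at 0. All 12 mitosis rows are darkest in day 14 aMHC+ and brightest in hESC or a day 3 library, as most replication rows are, except that MCM3 and MCM7 are darkest on day 7 and CDC6 and CDT1 in day 14 aMHC-, while CDKN1A is brightest on day 14 at 155 FPKM in aMHC+ and 215 FPKM in aMHC-. Values are as deposited. After median-ratio scaling 9 replication and 11 mitosis genes are lowest in day 14 aMHC+, and 3 and 1 in aMHC-.

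The 49 genes were highest most often on day 3 and lowest most often on day 14. Day 3 CD13-/ROR2- held the highest value for 27 of 49 members, against 17.8% of genes of at least 1 FPKM on average. Day 14 aMHC+ held the lowest value for 29 of 49, against 9.75% of those genes. Both counts were 27 and 29 after median-ratio scaling too. Day 7 NKX2-5+ was lowest for 7 members as deposited and for 2 after scaling, where 42.9% of all genes were lowest in it as deposited.

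Day 14 aMHC+ against hESC, the start and end of the series, gave the widest differences. In aMHC+, 30 of 49 members were at least 2-fold lower and 3 were higher; 40 members reached 5 FPKM in either library. Among 6382 genes tested, 18.6% were lower and 22.3% higher. At 4-fold, 21 members were lower and 2 higher, against 6.57% and 8.76% of all genes. The median over the 49 members was -1.91, and that over all genes tested 0.02. The shift between these libraries was small, and median-ratio scaling gave 29 lower and 3 higher, against 18.1% and 23% of genes, and a median of -1.86. The pluripotency markers were lower and the heart muscle markers higher in aMHC+ along with these differences (3.93 against 666 FPKM, and 4603 against 1.38), and their part in the result was not tested.

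**Figure D2:**
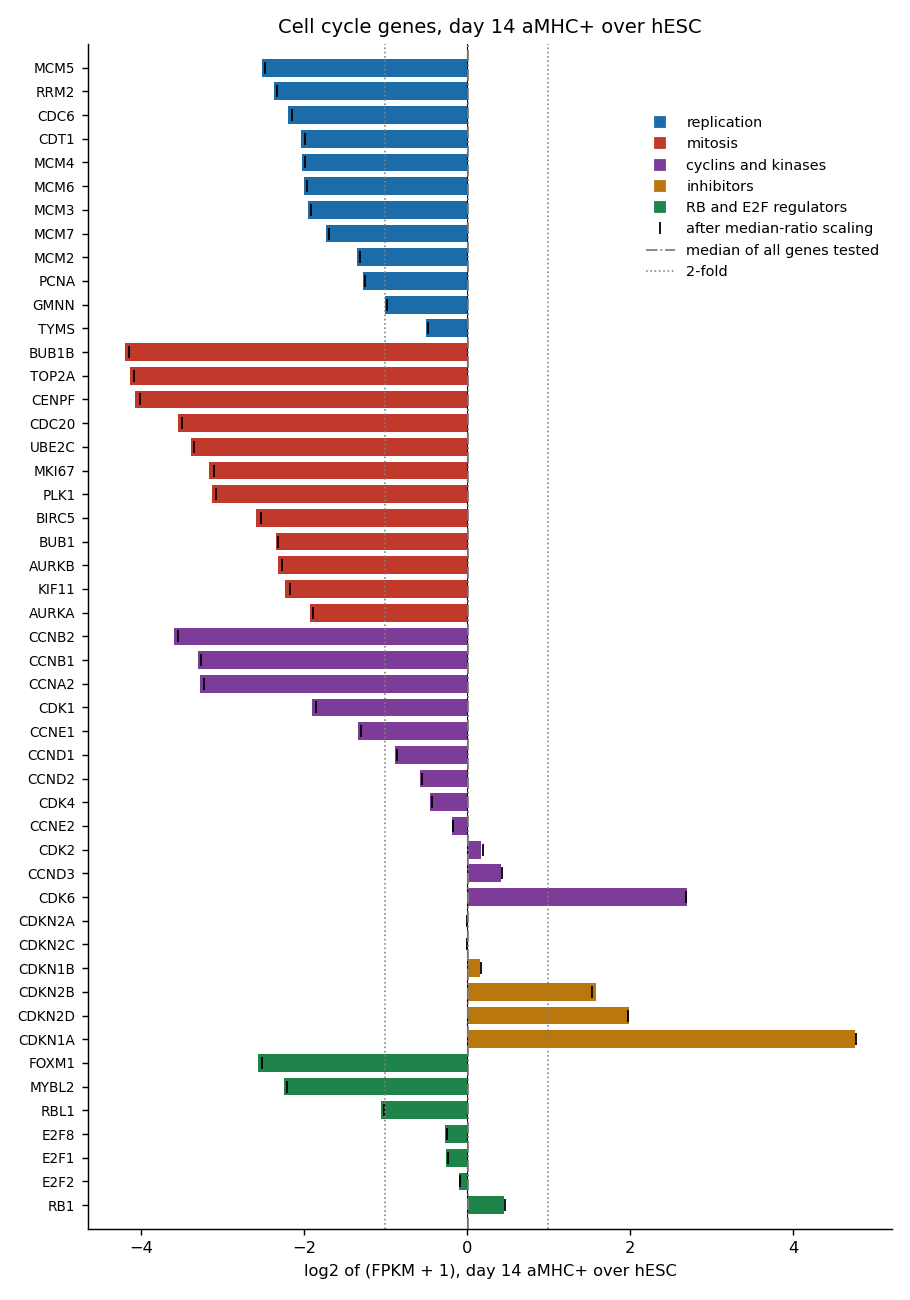
Log2 ratio of (FPKM + 1) of day 14 aMHC+ over hESC for each member (bars, coloured by role), with the ratio after median-ratio scaling (ticks), the 2-fold sizes (dotted lines) and the median of all genes tested (dash-dotted line, at 0.02, next to the line at 0). All 12 mitosis bars lie left of -1, from -1.92 to -4.20, while CDKN1A, CDK6 and CDKN2D reach right of 1, as does CDKN2B, which stayed under 5 FPKM in both libraries.

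The median of the replication genes was high in hESC and on day 3 and low on days 7 and 14. The 12 genes had a median of 16.5 FPKM in hESC, 17.4 and 16.9 in day 3 CD13+/ROR2+ and CD13-/ROR2-, 4.70 and 8.66 in day 7 NKX2-5+ and NKX2-5-, and 3.42 and 4.45 in day 14 aMHC+ and aMHC-. In day 14 aMHC+ over hESC, 11 of 12 were at least 2-fold lower, with a median of -1.97 and a range of -2.52 to -0.50. The exception was TYMS, and GMNN was at the edge of the 2-fold size (-1.01, or -0.98 after scaling).

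The MCM genes encode the 6 subunits of the helicase that unwinds DNA at origins, and they did not all follow 1 course. MCM5 stood at 17.1 FPKM in hESC, 11.5 and 13.6 in day 3 CD13+/ROR2+ and CD13-/ROR2-, 3.24 and 6.16 in day 7 NKX2-5+ and NKX2-5-, and 2.16 and 3.00 in day 14 aMHC+ and aMHC-. MCM3 stood at 45.1 FPKM in hESC, 21.4 and 33.4 in the day 3 libraries in the same order, 10.6 and 9.81 on day 7, and 11.0 and 13.3 on day 14. MCM3 was thus already at least 2-fold lower than in hESC in day 3 CD13+/ROR2+ (ratio -1.04). As deposited its lowest value was on day 7, while that of MCM5 was on day 14. After scaling MCM3 was also lowest in day 14 aMHC+ (10.4, against 10.6 in day 7 NKX2-5-). MCM4 was higher in both day 3 libraries (18.3 and 23.7 FPKM) than in hESC (15.9 FPKM) and was 3.17 and 3.998 FPKM on day 14. MCM2 stood at 2.84 FPKM in both day 14 libraries, against 8.76 in hESC. MCM6 was 3.87 FPKM in day 14 aMHC+ and 4.64 in aMHC-, against 18.4 in hESC, and MCM7 was 6.86 and 8.44 against 25.0. The ratios of the 6 subunits in day 14 aMHC+ over hESC ran from -1.35 (MCM2) to -2.52 (MCM5).

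CDC6 and CDT1 load the helicase, and geminin (GMNN) blocks CDT1 after S phase has begun. CDC6 was 2.37 FPKM in day 14 aMHC+, against 14.4 in hESC, and CDT1 was 1.21 against 8.04. GMNN differed less and did not keep to the order of the other licensing genes, with 2.92 FPKM in day 14 aMHC+ and 6.42 in aMHC-, against 6.88 in hESC. PCNA, the sliding clamp of DNA polymerases, was highest in day 3 CD13-/ROR2- at 54.5 FPKM, against 29.3 in hESC, and was 11.6 and 13.7 in day 14 aMHC+ and aMHC-.

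RRM2 and TYMS make DNA precursors, and they differed in course. RRM2, the small subunit of ribonucleotide reductase, stood at 23.1 FPKM in hESC, 33.8 and 33.9 in day 3 CD13+/ROR2+ and CD13-/ROR2-, 8.15 and 18.9 in day 7 NKX2-5+ and NKX2-5-, and 3.67 and 4.27 in day 14 aMHC+ and aMHC-. TYMS, thymidylate synthase, stood at 15.7 FPKM in hESC, 26.2 and 24.9 on day 3, 16.1 and 19.2 on day 7, and 10.8 and 18.0 on day 14 in the same order of fractions. TYMS was thus higher in day 14 aMHC- than in hESC as deposited, but about level with it after median-ratio scaling (14.8 and 14.7). Scaled, it stood at 23.5 and 20.7 on day 7, against 23.7 and 23.8 on day 3, so it was not low on day 7. The library kit does not mark strand, and TYMS shares 967 exon bases with ENOSF1 on the opposite strand in GENCODE, whose own level was 1.12 to 3.62 FPKM, so reads of the pair cannot be told apart there. Such overlap on the opposite strand was annotated for 14 of the 49 members, MCM2, CCND1, CDK2 and CDKN1A among them, and the partner of 8 is in the table.

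Mitotic genes were the group with the lowest ratios on day 14. The 12 genes had a median of 26.3 FPKM in hESC, 21.0 and 30.8 in day 3 CD13+/ROR2+ and CD13-/ROR2-, 6.28 and 8.99 in day 7 NKX2-5+ and NKX2-5-, and 1.604 and 2.68 in day 14 aMHC+ and aMHC-. Of the 12, all 12 were at least 2-fold and 11 of 12 at least 4-fold lower in day 14 aMHC+ than in hESC, with a median ratio of -3.14. AURKA, a kinase of spindle poles, was short of the 4-fold size with the pseudocount (5.05 against 21.9 FPKM, ratio -1.92).

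Among the genes with the widest range were the marker of dividing cells MKI67 and the decatenating enzyme gene TOP2A. MKI67 stood at 13.7 FPKM in hESC, 28.2 and 33.4 in day 3 CD13+/ROR2+ and CD13-/ROR2-, 4.34 and 9.90 in day 7 NKX2-5+ and NKX2-5-, and 0.641 and 1.91 in day 14 aMHC+ and aMHC-. It was thus higher than in hESC in both day 3 fractions before its low values on days 7 and 14, and day 14 aMHC+ held the lowest value of the series. TOP2A stood at 44.0 FPKM in hESC, 24.1 and 48.9 on day 3, 9.76 and 13.7 on day 7, and 1.57 and 2.84 on day 14 in the same order. TOP2A was 28.1-fold and MKI67 21.4-fold lower in day 14 aMHC+ than in hESC, as quotients of FPKM.

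The spindle checkpoint and chromosome genes split between strong and weaker differences. CENPF, a kinetochore protein gene, was 0.876 FPKM in day 14 aMHC+ against 30.4 in hESC (34.7-fold lower). BUB1B, which encodes the checkpoint kinase BubR1, was 1.19 against 39.2 (32.9-fold lower), and it was already at least 2-fold lower in day 3 CD13+/ROR2+ at 13.5 FPKM (ratio -1.48). BUB1, its paralog, was 4.69 against 27.9 (5.95-fold lower). The chromosomal passenger genes AURKB and BIRC5 (survivin) were 2.41 against 15.9 and 0.920 against 10.5 FPKM. KIF11, the motor that keeps spindle poles apart, was 0.632 against 6.64 FPKM.

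The genes that drive entry to and exit from mitosis were low on day 14 as well. PLK1, a mitotic kinase, stood at 24.7 FPKM in hESC, 23.6 and 47.1 in day 3 CD13+/ROR2+ and CD13-/ROR2-, 8.98 and 12.8 in day 7 NKX2-5+ and NKX2-5-, and 1.95 and 3.04 in day 14 aMHC+ and aMHC-. CDC20 and UBE2C, which act with the anaphase-promoting complex in the destruction of cyclin B, were 1.64 against 29.7 and 4.65 against 58.1 FPKM in day 14 aMHC+ against hESC. With the pseudocount, UBE2C alone passed the 2-fold size within the day 14 pair, at 4.65 FPKM in aMHC+ and 11.5 in aMHC- (ratio -1.15, but -0.95 after scaling).

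Set against each other inside a library, where scaling cancels apart from the pseudocount, mitotic genes stood above replication genes until day 7 and below them on day 14. The mean log2 of (FPKM + 1) over the mitosis genes minus that over the replication genes was 0.45 in hESC, 0.25 and 0.51 in day 3 CD13+/ROR2+ and CD13-/ROR2-, 0.20 and 0.05 in day 7 NKX2-5+ and NKX2-5-, and -0.89 and -0.70 in day 14 aMHC+ and aMHC-. Both day 14 libraries lay below 0 and the other 5 above it. Sorted by promoter letters in place of role, the 11 members with a CHR match had a median of -3.16 in day 14 aMHC+ over hESC (range -4.20 to -1.91), and the 11 with an E2F match and no CHR match a median of -1.35 (range -3.30 to -0.10). Of the CHR members 8 of 11 are mitosis genes, and of the others 7 of 11 are replication genes, so these medians are not independent of those by role.

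**Figure D3:**
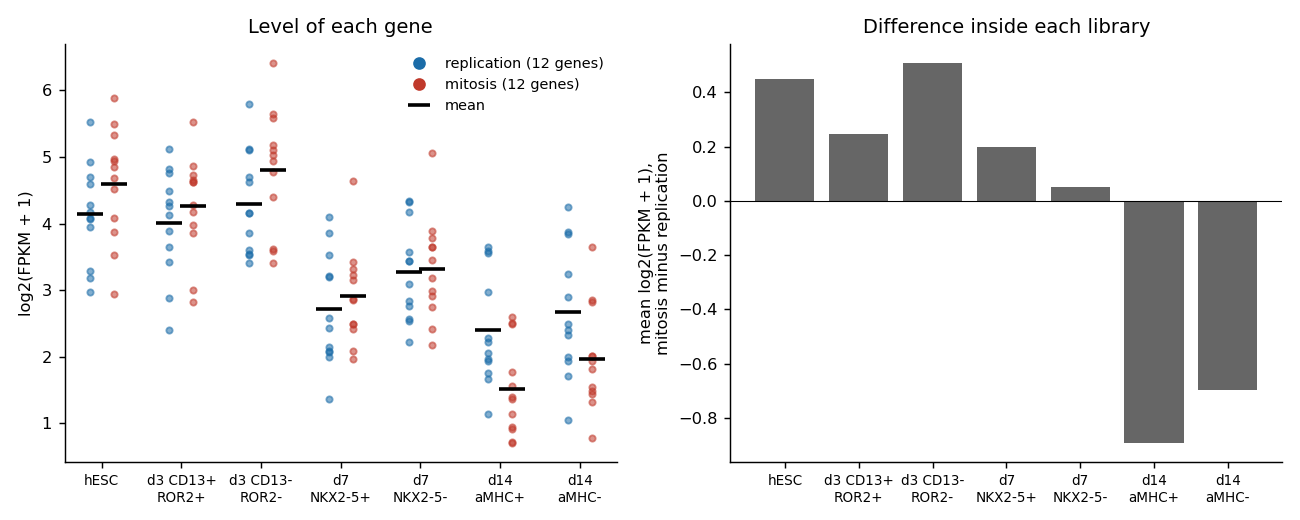
Left, log2 of (FPKM + 1) of each of 12 replication and 12 mitosis genes (points) with their means (black dashes) in the 7 libraries. Right, the mean of mitosis genes minus the mean of replication genes in each library, from 0.51 in day 3 CD13-/ROR2- to -0.89 in day 14 aMHC+.

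Cyclins and kinases divided by phase. Cyclins A and B and CDK1 were low on day 14, as the mitosis genes were. CCNB2 stood at 26.0 FPKM in hESC, 29.6 and 45.7 in day 3 CD13+/ROR2+ and CD13-/ROR2-, 6.10 and 8.78 in day 7 NKX2-5+ and NKX2-5-, and 1.23 and 2.91 in day 14 aMHC+ and aMHC-. CCNB1 was 2.06 FPKM in day 14 aMHC+ and 5.10 in aMHC-, against 29.1 in hESC, and CCNA2 was 1.30 and 1.91 against 21.3. CDK1, the kinase of mitosis, stood at 6.02 FPKM in hESC, 4.22 and 6.57 on day 3, 2.83 and 4.85 on day 7, and 0.872 and 1.03 on day 14. For day 7 NKX2-5- over day 3 CD13+/ROR2+, the ratio of CDK1 was 0.16 (scaled 0.37), while those of all 12 mitosis genes were below 0. CDK2, the kinase of S phase entry, was close to its starting level on day 14, at 7.02 and 6.74 FPKM in aMHC+ and aMHC- against 6.11 in hESC. The ratio of CDK1 to CDK2 was 0.124 in day 14 aMHC+ and 0.153 in aMHC-, and 0.544 to 0.984 in the other 5 libraries.

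Of the E-type cyclins, CCNE1 was at least 2-fold lower in day 14 aMHC+ than in hESC (ratio -1.33) and CCNE2 was low throughout. CCNE1 stood at 6.75 FPKM in hESC, 3.96 and 4.53 in day 3 CD13+/ROR2+ and CD13-/ROR2-, 1.34 and 1.39 in day 7 NKX2-5+ and NKX2-5-, and 2.08 and 2.35 in day 14 aMHC+ and aMHC-. Both day 7 values were below both day 14 values as deposited, but after scaling day 7 NKX2-5+ (1.96) lay between day 14 aMHC+ (1.97) and aMHC- (1.93). CCNE2 did not exceed 0.793 FPKM in any library, and its annotated exons overlap those of INTS8 on the opposite strand.

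The D-type cyclins, which answer to growth factors in G1, did not differ by 2-fold between day 14 aMHC+ and hESC. CCND1 stood at 19.4 FPKM in hESC, 18.7 and 45.0 in day 3 CD13+/ROR2+ and CD13-/ROR2-, 15.4 and 29.8 in day 7 NKX2-5+ and NKX2-5-, and 10.1 and 14.4 in day 14 aMHC+ and aMHC-. CCND2 stood at 31.9 FPKM in hESC, 15.3 and 54.8 on day 3, 17.4 and 47.1 on day 7, and 21.1 and 33.5 on day 14 in the same order. On days 3, 7 and 14 the first-named fraction of each pair had the lower value of CCND1 and CCND2. CCND3 stood at 4.63 FPKM in hESC, 5.09 and 4.56 on day 3, 2.38 and 7.26 on day 7, and 6.51 and 9.25 on day 14. As a share of the FPKM of all 3, which does not depend on scaling, CCND3 was 17.3% in day 14 aMHC+ and 16.2% in aMHC-, against 4.37% to 13.0% in the other 5 libraries, and CCND1 was 26.8% and 25.2%, against 34.7% to 47.9%.

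CDK4 and CDK6, the partners of the D-type cyclins, came closer in level. CDK6 stood at 1.52 FPKM in hESC, 5.52 and 2.42 in day 3 CD13+/ROR2+ and CD13-/ROR2-, 6.12 and 11.0 in day 7 NKX2-5+ and NKX2-5-, and 15.4 and 19.4 in day 14 aMHC+ and aMHC-. CDK6 was 10.1-fold higher in day 14 aMHC+ than in hESC. CDK4 stood at 44.3 FPKM in hESC, 39.1 and 33.4 on day 3, 15.2 and 28.9 on day 7, and 32.0 and 50.05 on day 14; it shares exon bases with TSPAN31 on the opposite strand, which was at most 3.31 FPKM. CDK6 made up 3.32% of the FPKM of the pair in hESC, 12.4% and 6.77% on day 3, 28.7% and 27.5% on day 7, and 32.5% and 27.9% on day 14. CDK4 thus remained the more abundant RNA per length in all 7 libraries.

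**Figure D4:**
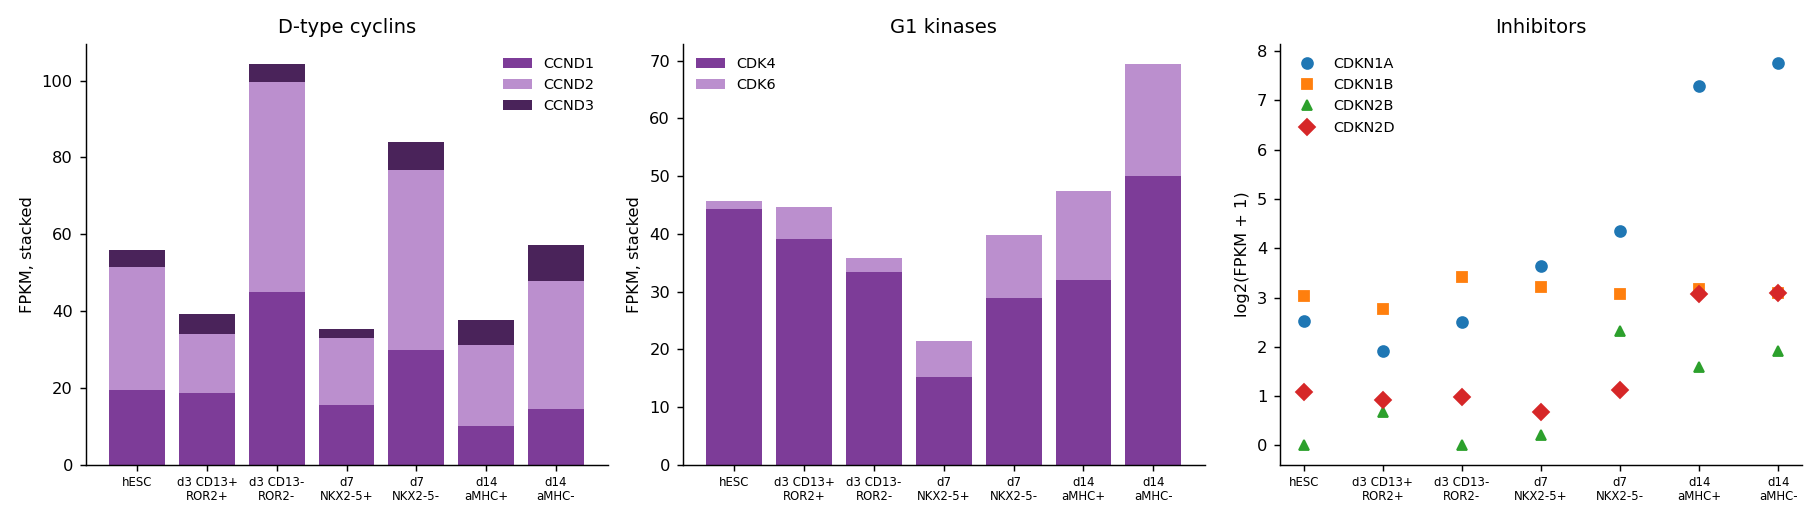
FPKM of the D-type cyclins (left, stacked bars) and of CDK4 and CDK6 (middle, stacked bars) and log2 of (FPKM + 1) of 4 kinase inhibitors (right, points) in the 7 libraries. CDK6 is 1.52 FPKM in hESC and 15.4 and 19.4 in the day 14 libraries, and CDKN1A lies above the other inhibitors in the day 7 and day 14 libraries.

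Among the inhibitors, CDKN1A had the highest log2 ratio of all 49 members in day 14 aMHC+ over hESC. It encodes p21, which blocks CDK2 and CDK1 complexes and is a textbook target of p53. CDKN1A stood at 4.75 FPKM in hESC, 2.79 and 4.71 in day 3 CD13+/ROR2+ and CD13-/ROR2-, 11.4 and 19.5 in day 7 NKX2-5+ and NKX2-5-, and 155 and 215 in day 14 aMHC+ and aMHC-. The 4 libraries of days 7 and 14 were all above the 3 earlier ones, and both day 14 libraries were far above both day 7 ones. Day 14 aMHC+ was 32.7-fold higher than hESC (ratio 4.76, and 4.77 after scaling). CDKN1B, which encodes the related inhibitor p27, lay between 5.79 and 9.67 FPKM in all 7 libraries as deposited. After scaling it ran from 5.24 in day 3 CD13+/ROR2+ to 12.1 in day 7 NKX2-5+. The ratio of CDKN1A to CDKN1B was 0.666 in hESC and 19.3 and 28.6 in day 14 aMHC+ and aMHC-.

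The INK4 inhibitors, which bind CDK4 and CDK6, included 1 gene that was higher on day 14. CDKN2D (p19) stood at 1.14 FPKM in hESC, 0.904 and 0.965 in day 3 CD13+/ROR2+ and CD13-/ROR2-, 0.604 and 1.17 in day 7 NKX2-5+ and NKX2-5-, and 7.46 and 7.52 in day 14 aMHC+ and aMHC-. Both day 14 values thus lay above all 5 others. CDKN2B (p15) was listed at 0 in hESC and day 3 CD13-/ROR2-, and was 0.594 FPKM in day 3 CD13+/ROR2+, 0.161 and 4.02 on day 7, and 2.001 and 2.77 on day 14. CDKN2A did not exceed 0.448 FPKM and CDKN2C 0.239 FPKM; a value listed at 0 in such a table can also be a failed estimate, and no fold is given against it.

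Among regulators, the activators of mitotic genes were low on day 14 while RB1 was not. FOXM1 stood at 12.1 FPKM in hESC, 16.6 and 22.7 in day 3 CD13+/ROR2+ and CD13-/ROR2-, 5.97 and 7.97 in day 7 NKX2-5+ and NKX2-5-, and 1.21 and 1.63 in day 14 aMHC+ and aMHC-. MYBL2 stood at 13.9 FPKM in hESC, 21.3 and 25.7 on day 3, 4.88 and 10.9 on day 7, and 2.14 and 3.88 on day 14. Both were thus highest on day 3 and lowest in day 14 aMHC+, like MKI67. RB1 lay between 3.30 FPKM in hESC and 5.91 in day 7 NKX2-5-, with 4.91 and 5.17 in day 14 aMHC+ and aMHC-. Its relative RBL1 (p107) was 0.796 FPKM in day 14 aMHC+ against 2.74 in hESC, under the 5 FPKM needed for a call. The activator E2F1 was 1.34 against 1.78 FPKM, E2F2 did not exceed 0.837 in any library, and the repressor E2F8 was 1.38 against 1.86. The highest value of E2F8 was in day 3 CD13+/ROR2+ as deposited (4.81) and in day 7 NKX2-5+ after scaling (6.40).

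The day 3 comparisons differed little for these genes. In CD13+/ROR2+ over hESC, 1 of 49 members was higher and 3 were lower, against 10.5% and 8.77% of genes tested, with a median of -0.09. The higher gene was CDK6 (5.52 against 1.52 FPKM, ratio 1.37), whose scaled values fell under the 5 FPKM minimum, and the lower ones were BUB1B, MCM3 and CCND2. In CD13-/ROR2- over hESC, 2 were higher and 0 lower, against 8.41% and 7.12% of genes tested, with a median of 0.25. They were MKI67 (33.4 against 13.7 FPKM) and CCND1 (45.0 against 19.4). In both, the members' shares were below the background.

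Within day 3, CD13+/ROR2+ had 0 members higher and 3 lower than CD13-/ROR2-, against 9.69% and 9.24% of genes tested, with a median of -0.33 beside 0.03 over all genes. The lower genes were CCND2 (15.3 against 54.8 FPKM, ratio -1.78), CCND1 (18.7 against 45.0, ratio -1.22) and CDT1 (4.27 against 9.63, ratio -1.01). The 12 mitosis genes had a median of -0.69, and all stayed short of the 2-fold size. After scaling TOP2A and PLK1 passed it. Of the 35 members then tested, 6 were lower and 0 higher, against 10.4% and 8.5% of genes tested. PLK1 was 23.6 against 47.1 FPKM and UBE2C 45.0 against 84.2. AURKB went the other way, at 17.0 against 9.56 FPKM. The pluripotency markers differed in the same direction as the mitosis genes (169.5 against 579 FPKM summed), and their part was not tested.

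In the step from day 3 to day 7, members were lower along with most genes, and the scaling decides how many. Day 7 NKX2-5+ over day 3 CD13+/ROR2+ had 22 of 49 members lower and 1 higher, with 36 of the 49 tested. Of all genes tested, 38.3% were lower as well and 8.43% higher. After median-ratio scaling 9 members were lower and 2 higher, with 37 tested, against 14.8% and 17.2% of genes tested. By either scale the share of lower genes among the members tested was above that among all genes tested. The median over members was -0.97 beside -0.77 over all genes tested, or -0.36 beside -0.06 after scaling. Replication genes had medians of -1.20 and, scaled, -0.67, and mitosis genes -1.33 and, scaled, -0.72. MKI67 was lower by either scale (4.34 against 28.2 FPKM, ratio -2.45 or -1.86), as were CCNB2, RRM2 and CDC6, whereas CDKN1A was higher (11.4 against 2.79 FPKM, ratio 1.71 or 2.32). CDKN1B was the other higher member after scaling (8.29 against 5.79 FPKM as deposited, ratio 0.45 or, scaled, 1.07).

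Day 7 NKX2-5- over the same day 3 library had 10 members lower and 2 higher, with 37 tested, against 15.3% and 11% of genes tested. The median was -0.65 beside -0.31 over all genes. After scaling there were 3 lower and 3 higher, with 38 tested, against 9.99% and 14.5% of genes tested. The higher genes as deposited were CDKN1A (19.5 against 2.79 FPKM) and CCND2 (47.1 against 15.3). MKI67 (9.90 against 28.2) and CCNB2 (8.78 against 29.6) were among the lower ones by either scale. The 2 day 7 comparisons share their day 3 library, so their likeness is not independent.

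Within day 7, NKX2-5+ had 5 members lower and 0 higher than NKX2-5-, against 18.3% and 5.64% of genes tested, and 0 of either after scaling, against 10% and 9.03%. The 5 were RRM2, MKI67, CCND2, CCND3 and MYBL2. The median was -0.46, beside -0.47 over all genes tested. CCND2 was 17.4 against 47.1 FPKM (ratio -1.38, scaled -0.97) and CCND3 was 2.38 against 7.26 (ratio -1.29, scaled -0.98), the closest to the 2-fold size after scaling. The NKX2-5- library also held more RNA of the 4 fibroblast markers COL3A1, DCN, LUM and PDGFRB (19.4 FPKM summed in NKX2-5+ and 371 in NKX2-5-). It held more of the liver and yolk sac markers AFP and APOA1 as well (18.8 and 138 FPKM), and less of the heart muscle markers. The part of these markers was not tested.

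From day 7 to day 14, mitotic genes were lower while most genes were higher as deposited. Day 14 aMHC+ over day 7 NKX2-5+ had 10 of 49 members lower and 5 higher, against 3.13% and 35.4% of genes tested. After scaling 18 were lower and 2 higher, against 8.72% and 15.1%. The median over mitosis genes was -1.54, or -2.02 after scaling, beside 0.73 and 0.07 over all genes tested. Replication genes had medians of -0.21 and, scaled, -0.69. UBE2C (4.65 against 23.95 FPKM), CENPF (0.876 against 8.39) and TOP2A (1.57 against 9.76) were the 3 members called at least 4-fold lower as deposited, against 0.829% of genes. After scaling 10 were, against 1.92%. These calls use the pseudocount and the 5 FPKM minimum. As quotients of FPKM further members passed 4-fold, such as MKI67 (6.77-fold) and CCNB2 (4.94-fold). CDKN1A and CDKN2D were the members that were higher by either scale (155 against 11.4 and 7.46 against 0.604 FPKM), whereas CCND3, CDK4 and CDK6 passed 2-fold only as deposited. Set against day 7 NKX2-5- in place of NKX2-5+, a setting added after the data were seen, 19 members were lower and 2 higher, against 6.84% and 17.6% of genes tested.

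Within day 14, aMHC+ and aMHC- differed little in these genes. UBE2C was the 1 of 49 members called lower in aMHC+ and 0 were higher, against 1.16% and 1.73% of genes tested, and the median was -0.26 beside -0.24 over all genes; 19 members reached 5 FPKM in either library. Several low genes nevertheless had lower values in aMHC+, among them MKI67 (0.641 against 1.91 FPKM), CCNB1 (2.06 against 5.10) and CCNB2 (1.23 against 2.91). After scaling 0 members were lower or higher, against 0.616% and 2.37% of genes. Ratios below 0 were then found for 36 of 49 members and for 2901 of 5196 genes tested. As deposited they were found for 42 of 49 members and for 4478 of 5712 genes tested. The sum of the fibroblast markers was lower in aMHC+ as well (199.6 against 424 FPKM), and their part was not tested. COL3A1 made up most of both sums (188 against 409). LUM (5.51 against 7.10) and PDGFRB (3.65 against 6.59) had the same direction, and DCN the other (1.97 against 1.44).

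**Figure D5:**
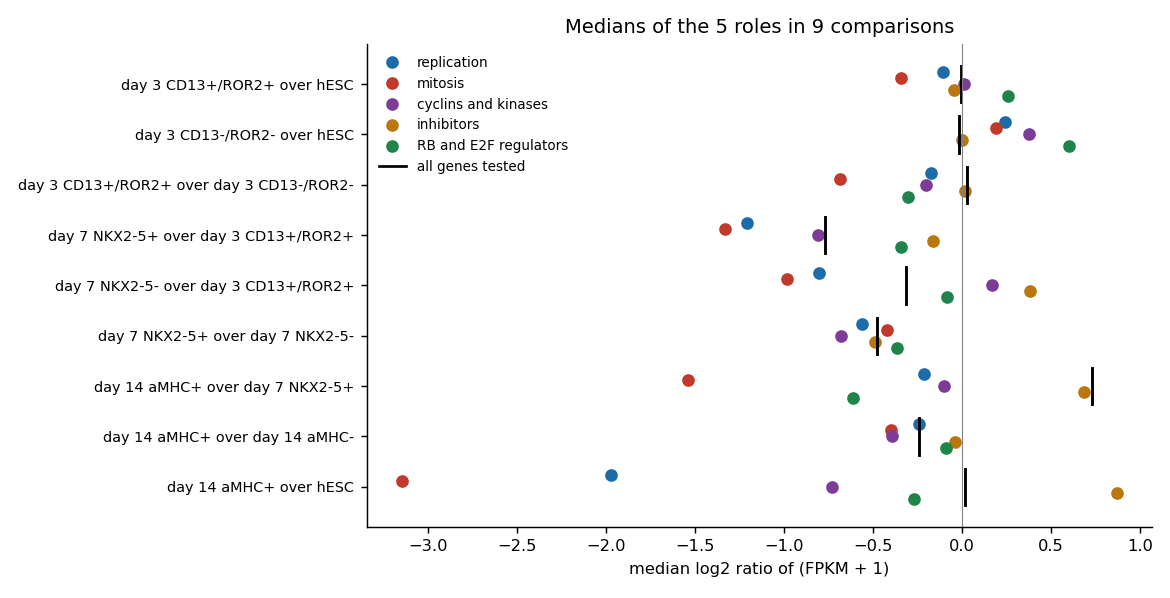
Median log2 ratio of (FPKM + 1), as deposited, of the 5 roles (coloured points) and of all genes tested (black bars) in the 9 comparisons, each named with the library on top of the ratio first. Mitosis genes lie furthest left of the black bar in both comparisons that pair day 14 with an earlier day, at -3.14 over hESC and -1.54 over day 7 NKX2-5+.

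A list of 93 further cell cycle genes, not among the members, was read in the same way. For day 14 aMHC+ over hESC, 53 of 93 were at least 2-fold lower and 1 was higher, against 18.6% and 22.3% of all genes tested, with a median of -1.69. The 26 spindle and kinetochore genes had a median of -2.56 (20 lower, 0 higher), the 36 origin and fork genes -1.42 (20 lower, 0 higher), the 17 genes of kinase control and mitotic exit -1.69 (12 lower, 1 higher) and the 14 E2F, pocket protein and MuvB genes -0.41 (1 lower, 0 higher). The lowest ratios were those of DLGAP5 (0.523 against 19.8 FPKM), HMMR (0.825 against 23.3), NUSAP1 (1.37 against 23.6) and NEK2 (0.135 against 10.5), all of which act at the spindle. The gene that was higher was CDKN1C, which encodes the third relative of p21 and p27, called p57. CDKN1C stood at 2.17 FPKM in hESC, 2.22 and 2.42 in day 3 CD13+/ROR2+ and CD13-/ROR2-, 3.46 and 9.87 in day 7 NKX2-5+ and NKX2-5-, and 13.8 and 16.9 in day 14 aMHC+ and aMHC-.

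Counts of further genes in the other comparisons are given with the shares of all genes tested. On day 3, CD13+/ROR2+ over hESC had 4 of 93 lower and 0 higher (8.77% and 10.5% of all genes), among them TTK (a spindle checkpoint kinase) and NDC80 (a kinetochore gene). CD13-/ROR2- over hESC had 2 lower and 4 higher (7.12% and 8.41%), with a median of -0.03 where the members had 0.25. CD13+/ROR2+ over CD13-/ROR2- had 4 lower and 0 higher (9.24% and 9.69%), with WEE1, the kinase that restrains CDK1, at 7.23 against 23.4 FPKM. These day 3 counts are below the shares of all genes. Over day 3 CD13+/ROR2+, day 7 NKX2-5+ had 40 of 93 lower and 0 higher (38.3% and 8.43%), with 55 of the 93 tested. After median-ratio scaling 15 were lower and 2 higher (14.8% and 17.2%), with 53 tested. Day 7 NKX2-5- over the same library had 15 lower and 1 higher (15.3% and 11%), with 56 of the 93 tested. Scaled, it had 9 lower and 2 higher (9.99% and 14.5%), with 51 tested. Taken over the genes tested, the shares of lower genes in both comparisons were above those of all genes by either scale. Day 7 NKX2-5+ over NKX2-5- had 3 lower and 0 higher (18.3% and 5.64%), among them SKP2, which targets p27 for destruction, at 11.2 against 31.9 FPKM. Scaled, 1 was lower and 0 higher (10% and 9.03%). Day 14 aMHC+ over day 7 NKX2-5+ had 8 lower and 2 higher (3.13% and 35.4%), with KIF20A at 0.641 against 6.28 FPKM and ECT2 at 0.998 against 6.51. Scaled, 16 were lower and 1 higher (8.72% and 15.1%). Day 14 aMHC+ over aMHC- had 0 lower and 0 higher (1.16% and 1.73%).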

How the data were processed

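The authors deposited 1 table of FPKM values with 1 column for each of 7 libraries. The tool Cufflinks and the build hg19 are named per the submitters' processing notes; their versions, the aligner and the annotation were not given in the sources used here. Per the labels' protocols, cells were sorted in 2 rounds and a TruSeq RNA v2 kit and single-end sequencing followed. Columns were matched to samples by name. Of 23368 genes, 106 are blank and were left out. FPKM divides by transcript length and mapped total; the counts behind a value are unknown, and values near 1 FPKM rest on few reads.

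Computed here (Python 3.11.15, pandas 2.3.3) were log2 ratios with a pseudocount of 1 FPKM for 9 comparisons, calls at 2-fold and 4-fold where 1 value reached 5 FPKM, medians by role, and motif matches in RefSeq promoters. There is 1 library per group and no test. The rule for calls was applied to the hESC values with known changes put in and no noise added. That checks the arithmetic only, not the rate of false calls between libraries. Alternatives were pseudocounts of 0.1 and 5, median-ratio scaling, equal sums without 1689 small RNA and histone symbols, no minimum, and leaving out values listed at 0. The members, lists and motifs were chosen with earlier results of these data known. Values are given for members past the 2-fold size in a comparison, for all D-type and E-type cyclins, kinases and inhibitors, for MKI67, TOP2A and CDK1, and for up to 4 further genes per comparison; the rest were named for their role.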

Additional observations from a re-analysis of the deposited data

How the results depend on the processing

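The median ratio over the 49 members kept its side of the 2-fold size in all 9 comparisons under median-ratio scaling and a pseudocount of 5. It crossed that size for day 7 NKX2-5+ over day 3 CD13+/ROR2+ (-0.97) at -1.23 with a pseudocount of 0.1 and -1.03 without members listed at 0, and for day 14 aMHC+ over day 7 NKX2-5+ (-0.36) at -1.10 with equal sums. The counts of lower members moved most where day 7 libraries were used. Day 7 NKX2-5+ over day 3 CD13+/ROR2+ had 22 lower, or 10 at equal sums. Day 7 NKX2-5- over the same library had 10, or 4 at equal sums and 3 at a pseudocount of 5. Day 7 NKX2-5+ over NKX2-5- had 5, or 0 at equal sums and 1 at a pseudocount of 5. Day 14 aMHC+ over day 7 NKX2-5+ had 10 lower and 5 higher, or 23 and 2 at equal sums, 4 and 2 at a pseudocount of 5, and 16 lower with no minimum. In that comparison the mitosis median of -1.54 was -0.68 at a pseudocount of 5. Day 3 CD13+/ROR2+ over hESC had 1 higher and 3 lower, or 3 and 1 at equal sums and 0 and 1 at a pseudocount of 5. Day 14 aMHC+ over aMHC- had 1 lower, or 3 at a pseudocount of 0.1. Of 98 single calls, 68 held under median-ratio scaling, 30 fell short of 2-fold and 0 turned round. For day 14 aMHC+ over hESC no count or median of all members moved past these limits under any setting. No paired analysis was possible because each group has 1 library.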
